A study of Mus musculus with 6 samples.

Results

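Blood-cell miRNAs were followed in small RNA sequencing of exosomes from HN9.10e cells, an immortalized mouse embryonic hippocampal line. The 6 members were chosen by gene name and not by a rule on their values, though earlier results of these data were known. They are the rows of the count table that carry the GENCODE M21 names Mir451a, Mir144, Mir486, Mir223, Mir142b and Mir150, 6 of 1973 rows in all. Each row counts a whole hairpin, and reads of its 5p and 3p arms are not separated. The 3 control libraries came from exosomes of untreated wild-type cells, and the 3 ceramide libraries from exosomes of wild-type cells given 100 nM ceramide. Both groups were collected after 48 h, from a single cell line whose growth medium held 10% fetal bovine serum. No library of medium without cells was analysed here, so miRNAs of the serum and miRNAs released by the cells cannot be told apart in these counts. Whether the serum had been depleted of vesicles is not given in the sources used here.

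Blood cells carry miRNAs that most other cells make little of, and serum holds the same miRNAs after cell release or lysis. The miR-144 and miR-451a hairpins are cut from a shared transcript that GATA1 drives in red cell precursors, and miR-451a is matured by Argonaute2 without Dicer. The miR-486 hairpin is encoded in the ankyrin 1 gene and is abundant in red cells, but also in heart and skeletal muscle. The miRNA miR-223 belongs to neutrophils, monocytes and platelets, miR-142 to all blood lineages, and miR-150 to mature B and T lymphocytes.

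The mature sequences of the members are shown where an entry was at hand. Each one shown has a seed of its own, so those rows stand for different miRNAs and not for copies of one. For Mir486 no seed could be compared. The sequences come from RefSeq on GRCm38.p6, are written 5′ to 3′, and have the seed (bases 2 to 8) in capitals. The table has mature entries for 5 of the 6 members, all but Mir486, and for Mir150 it has the 3p miRNA. The sequences of miR-142a are added because miR-142a-3p lies opposite miR-142b.
mmu-miR-451a: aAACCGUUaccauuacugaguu
mmu-miR-144-5p: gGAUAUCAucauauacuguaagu
mmu-miR-144-3p: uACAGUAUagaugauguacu
mmu-miR-223-5p: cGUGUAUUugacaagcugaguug
mmu-miR-223-3p: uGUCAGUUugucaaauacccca
mmu-miR-142b: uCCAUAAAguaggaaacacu
mmu-miR-142a-5p: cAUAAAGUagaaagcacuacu
mmu-miR-142a-3p: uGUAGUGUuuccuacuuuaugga
mmu-miR-150-3p: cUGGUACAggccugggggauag
None of these seeds was shared with any other of the 1738 mature miRNAs in the table.

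The positions are those of GENCODE M21 on GRCm38. Mir144 lies on chromosome 11 from 78073005 to 78073070 and Mir451a from 78073170 to 78073241, both on the plus strand and 99 bases apart. Mir451b occupies the same bases as Mir451a on the minus strand. Mir486 is an intronic hairpin of Ank1, on chromosome 8 from 23142555 to 23142682, over Mir3107 on the other strand. Mir223 lies on chromosome X from 96242817 to 96242926, within exonic sequence of the long noncoding RNA F630028O10Rik. Mir150 lies on chromosome 7 from 45121757 to 45121821, in no other gene. Mir142b lies on chromosome 11 from 87756841 to 87756955 on the minus strand and spans Mir142, which runs from 87756864 to 87756927 on the plus strand. The whole miR-142b sequence is the reverse complement of 20 bases of miR-142a-3p. Mir142, Mir451b and Mir3107 have no rows of their own among the counts. As the use of strand in counting is not stated, reads of these genes and of Mir142b, Mir451a and Mir486 cannot be told apart.

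The total count lay between 800810 and 2760015 per library, and both ends belong to the ceramide group (replicates 1 and 2). Of all rows, 418 had enough counts to be tested, and all 6 members were among them. Counts were normalized with the TMM method and are given as CPM, a count scaled to the size of its library. A mature miRNA is about as long as a read of it, so levels were compared between rows without scaling to length. The defining neuronal rows were present but low for the 3 Mir124a rows, which share a mature miRNA and had means of 17.2 to 17.3 CPM. The Mir9-2 and Mir9-3 rows had 70.8 and 71.2 CPM, and Mir138-1 had 3123 CPM.

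All 6 blood-cell rows were detected in every library, at 9 to 605 counts. Over the 6 libraries the mean level was 244 CPM for Mir486, 37.2 for Mir451a, 30.4 for Mir142b, 26.0 for Mir223, 13.3 for Mir144 and 12.4 for Mir150. By this mean Mir486 ranked 177 of the 418 tested rows and Mir150 ranked 363. The median tested row had 107 CPM, and 5 of the 6 members lay below it.
Mir486 stood apart, since its lowest library (178 CPM) lay above the highest library of Mir451a (42.7 CPM), and its mean was 6.57 times that of Mir451a. Below it, neighbours in the order overlapped in range, and the members formed no clear steps. Mir451a exceeded Mir142b in 5 of 6 libraries, and Mir142b exceeded Mir223 in 5 of 6 and equalled it in control replicate 2. Mir223 exceeded Mir144 within each of the 6 libraries, while Mir144 and Mir150 differed by less than their spread.

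**Figure D1:**
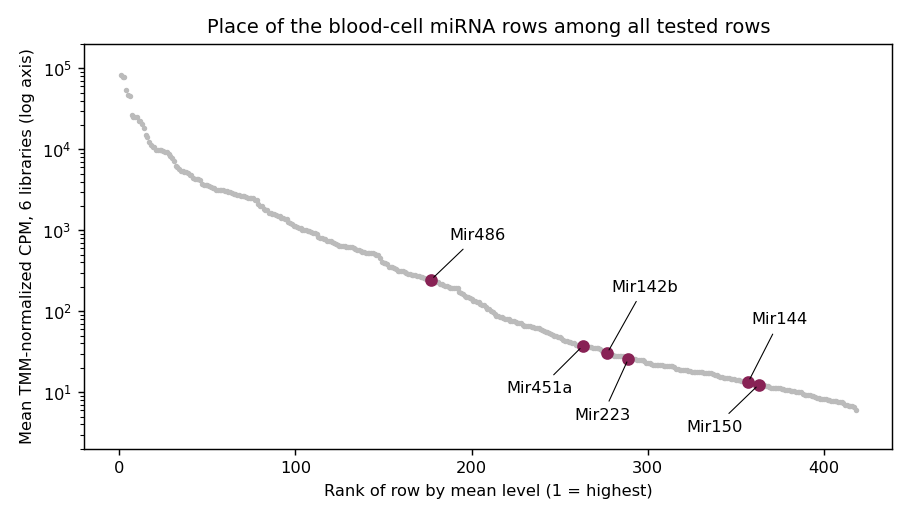
Mean TMM-normalized CPM over the 6 libraries (log axis) against rank for the 418 tested rows in grey, with the 6 blood-cell rows in purple. Mir486, at 244 CPM, is the only one of the 6 above the median row of 107 CPM.

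Mir451a, the most abundant miRNA of mature red cells, had 28.9, 42.7 and 38.8 CPM in control replicates 1, 2 and 3. In ceramide replicates 1, 2 and 3 it had 39.0, 40.5 and 33.2 CPM. The groups overlapped, and all ceramide values lay inside the control range. Control libraries averaged 36.8 ± 7.07 CPM and ceramide libraries 37.6 ± 3.86 CPM (SD over 3 libraries each).
The log2 fold change of Mir451a was 0.01 (SE 0.18, with an adjusted p of 0.975 in the quasi-likelihood test of edgeR), with a 95% interval from -0.42 to 0.45. The direction of so small a difference has no weight, and it was -0.06 with library size alone as the scaling.

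Mir144, encoded beside Mir451a, had 12.0, 9.95 and 11.0 CPM in the control libraries and 23.4, 11.0 and 12.8 CPM in the ceramide libraries. Ceramide replicate 1 stood alone at the top, on 18 counts, with an exact 95% Poisson interval of 13.9 to 37.0 CPM. The log2 fold change was 0.39 (SE 0.32, quasi-likelihood adjusted p = 0.388). Without ceramide replicate 1 it was 0.10. The ratio of Mir451a to Mir144 counts was 2.42, 4.29 and 3.53 in control and 1.67, 3.69 and 2.60 in ceramide libraries. The ranges of this ratio overlapped, and its lowest value was that of ceramide replicate 1.

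Mir486 had 281, 238 and 283 CPM in the control libraries and 178, 229 and 257 CPM in the ceramide libraries. The groups overlapped, because ceramide replicate 3 lay above control replicate 2. The means were 268 ± 25.5 CPM and 221 ± 39.9 CPM (SD over 3 libraries each), which gave a log2 fold change of -0.26 (SE 0.16, quasi-likelihood adjusted p = 0.267). The lowest library, ceramide replicate 1, also had the fewest counts in total, and without it the log2 fold change was -0.16.
Mir486 rested on the most counts of the 6 members, 137 to 605 per library. Its spread was 1.72 times the spread from counting alone in control and 3.35 times in ceramide exosomes. The spread was also above that from counting for Mir144 in ceramide (1.84 times) and Mir451a in control exosomes (1.31 times). In 8 of the 12 pairs of a member and a group it was below that from counting alone. An SD of 3 libraries is itself uncertain.

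Mir223, a miRNA of myeloid cells, had 19.0, 22.8 and 19.8 CPM in the control libraries and 36.4, 30.7 and 27.2 CPM in the ceramide libraries. Every ceramide library lay above every control library. The means were 20.5 ± 2.00 CPM and 31.4 ± 4.61 CPM (SD over 3 libraries each), a fitted fold of 1.5.
The log2 fold change of Mir223 was 0.58 (SE 0.17, 95% interval 0.17 to 0.99), and its quasi-likelihood adjusted p was 0.0553. A row was called at an adjusted p of at most 0.05 with a log2 fold change of 0.6 or more in either direction, and Mir223 fell just short of both. With DESeq2's size factors in edgeR it passed both, at 0.66 (adjusted p = 0.0399). Over the 15 alternatives the adjusted p of Mir223 ranged from 0.0216 to 0.33, and the log2 fold change stayed between 0.47 and 0.94.

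Mir142b, whose reads cannot be told apart from those of the pan-leukocyte miR-142, had 30.9, 22.8 and 24.9 CPM in the control libraries and 37.7, 34.1 and 32.4 CPM in the ceramide libraries. Its groups did not overlap either, though control replicate 1 (30.9 CPM) came close to the lowest ceramide library, replicate 3 (32.4 CPM). The means were 26.2 ± 4.25 CPM and 34.7 ± 2.72 CPM (SD over 3 libraries each). The log2 fold change was 0.40 (SE 0.17, quasi-likelihood adjusted p = 0.126), which met neither threshold.

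Mir150, a lymphocyte miRNA, had 12.0, 13.5 and 16.1 CPM in the control libraries and 11.7, 11.4 and 9.79 CPM in the ceramide libraries. All ceramide libraries lay below all control libraries, but control replicate 1 and ceramide replicate 1 were nearly equal. The means were 13.9 ± 2.08 CPM and 10.9 ± 1.02 CPM (SD over 3 libraries each), and 9 to 30 counts per library lie behind them. The log2 fold change was -0.37 (SE 0.20, quasi-likelihood adjusted p = 0.282), with a 95% interval from -0.83 to 0.10.

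**Figure D2:**
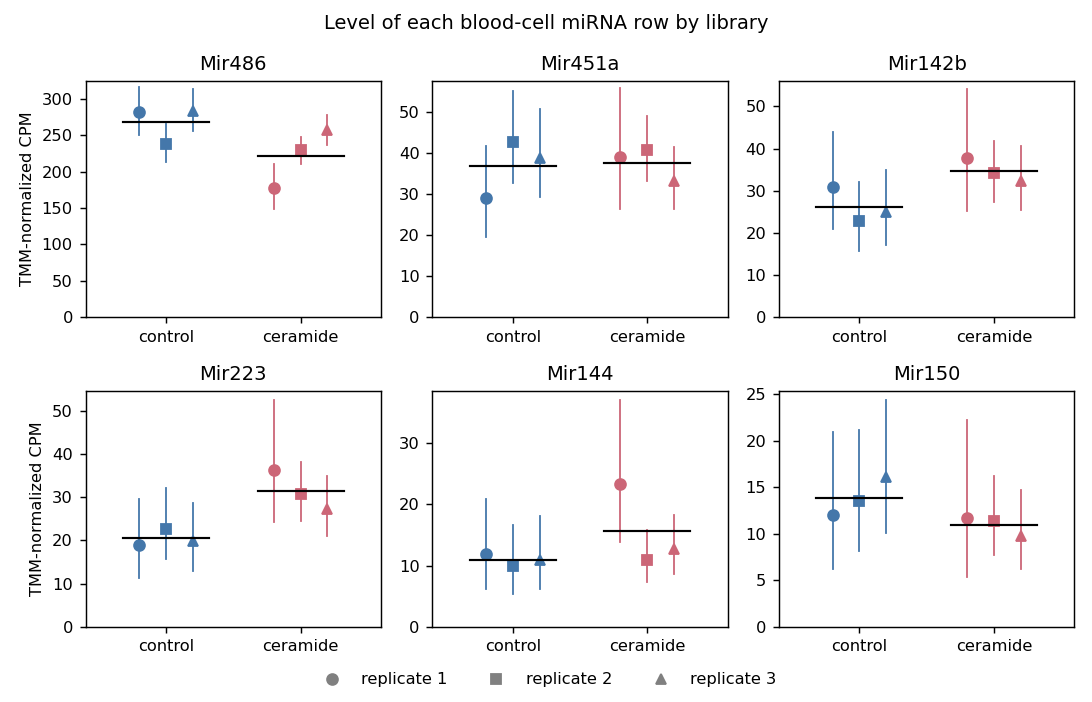
TMM-normalized CPM of each blood-cell row in each library, with the exact 95% Poisson interval of the count as a vertical line (counting error only) and the group mean as a horizontal line. Control and ceramide points are apart for Mir223, Mir142b and Mir150 and overlap for Mir486, Mir451a and Mir144.

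None of the 6 members was called by edgeR's quasi-likelihood test, against 48 of the 418 tested rows (11.5%), 13 of them higher in ceramide (3.11%) and 35 lower (8.37%). None had an adjusted p of at most 0.05 at any fold either, against 83 of all rows (19.9%). At an unadjusted p under 0.05 there were 2 members with edgeR (Mir223 and Mir142b), 2 with limma-voom and 0 with DESeq2, and neither of these tools called a member. Over all tested rows this p was reached by 36.6% with edgeR, 39.5% with limma-voom and 26.6% with DESeq2, so 2 of 6 is no more than the background. The groups did not overlap in 3 of the 6 members, against 164 of the 418 rows (39.2%). They were higher in ceramide for Mir223 and Mir142b, as for 14.1% of all rows, and lower for Mir150, as for 25.1%. 
The split of called rows into 13 higher and 35 lower moved to 21 and 26 with DESeq2's size factors and to 4 and 42 with library size alone. The median log2 fold change was 0.20 over the 6 members and -0.01 over all rows tested. The signs of Mir144, Mir486, Mir223, Mir142b and Mir150 held under all 4 scalings, and that of Mir451a did not. Another scaling moved the median of all rows to between -0.09 and 0.07.

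**Figure D3:**
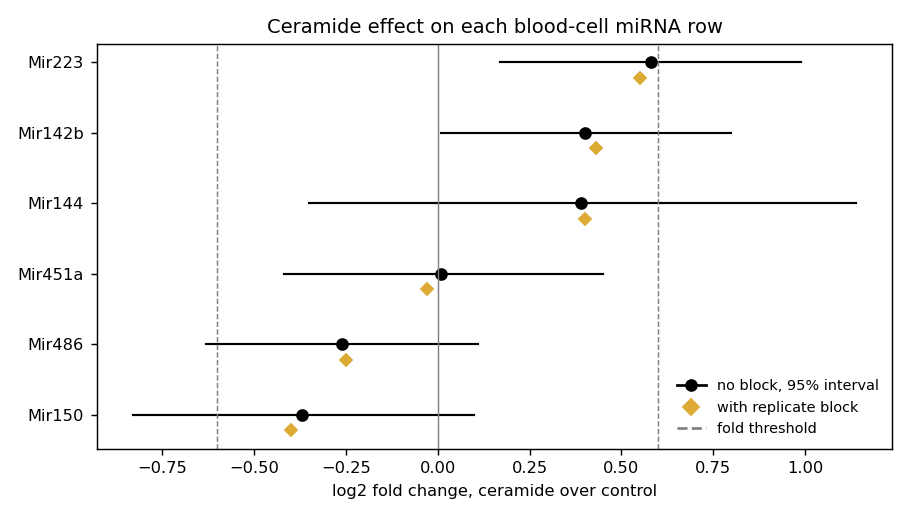
Log2 fold change of each blood-cell row with its 95% interval (black) and with the replicate number as a block (yellow), between dashed lines at the fold threshold of 0.6 in either direction. Every point lies inside the dashed lines, and the interval of Mir223, from 0.17 to 0.99, is the farthest from 0.

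Libraries with the same replicate number deviated together, so the comparison was also made within pairs. For Mir223 the log2 difference of ceramide replicate over control replicate was 0.90, 0.41 and 0.44 in pairs 1, 2 and 3. For Mir142b it was 0.27, 0.56 and 0.36, so both of these rows were higher in ceramide within every pair. Mir150, the lymphocyte row, was lower in ceramide within every pair. With the replicate number as a block, adjusted p was 0.0216 for Mir223 (log2 fold change 0.55) and 0.0354 for Mir142b (0.43), again by quasi-likelihood in edgeR. Both stayed below the fold threshold of 0.6, and in that fit 0.05 was met by the adjusted p of 189 of the 418 rows (45.2%). With the block 87 rows (20.8%) were called in all, and none of the 6.
For Mir144 the differences were 0.90, 0.13 and 0.20, and for Mir486 -0.66, -0.06 and -0.14. Pair 1 thus held the largest difference of Mir144, Mir486 and Mir223. For Mir150 it was pair 3, with differences of -0.03, -0.23 and -0.65, and for Mir451a the pairs differed in sign (0.41, -0.07 and -0.22).
Pair 1 was labelled lane 1, the only lane label with libraries of both groups. Both its libraries also carry sample number 1, and the labels name no run, so a shared run is not given. Control replicates 2 and 3 came from lane 4 and ceramide replicates 2 and 3 from lane 2. With lane as a term, which rests the effect on pair 1, the log2 fold change was 0.94 for Mir223, 0.96 for Mir144, 0.43 for Mir451a, 0.28 for Mir142b, -0.03 for Mir150 and -0.66 for Mir486, and none was called. Outside pair 1, lane and treatment cannot be told apart, and within pair 1 the labels do not separate run from treatment.

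Summed over the 6 members, the level was 384, 350 and 394 CPM in the control libraries and 326, 357 and 372 CPM in the ceramide libraries. The groups overlapped. The means were 376 ± 23.1 CPM and 352 ± 23.4 CPM (SD over 3 libraries each), a difference of -24.2 CPM (exact permutation test, two-sided, p = 0.3). As a share of all counts the members held 0.0386 ± 0.00295% in control and 0.0342 ± 0.00291% in ceramide exosomes (exact permutation test, two-sided, n = 3 each, p = 0.2). With 3 libraries in each group this test cannot go below 0.1.
The sum was mostly Mir486. Without Mir486 the other 5 rows summed to 103, 112 and 111 CPM in control and 148, 128 and 115 CPM in ceramide libraries. Every ceramide library then lay above every control library, as for 14.1% of all single rows tested. The lowest ceramide library (115 CPM) was close to the highest control library (112 CPM), and this sum was not tested.

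The make-up of the blood-cell counts varied mostly through Mir486. Mir486 held 73.2%, 68.1% and 71.9% of the counts on the 6 rows in the control libraries and 54.6%, 64.2% and 69.0% in the ceramide libraries. Ceramide replicate 1 had the lowest share, on 251 counts in all. Mir223 held 4.94%, 6.50% and 5.02% in control and 11.2%, 8.60% and 7.32% in ceramide libraries. For Mir142b the shares were 8.05%, 6.50% and 6.32%, then 11.6%, 9.55% and 8.70%. These make-up values describe the same counts as the levels above, so they carry no test of their own.

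**Figure D4:**
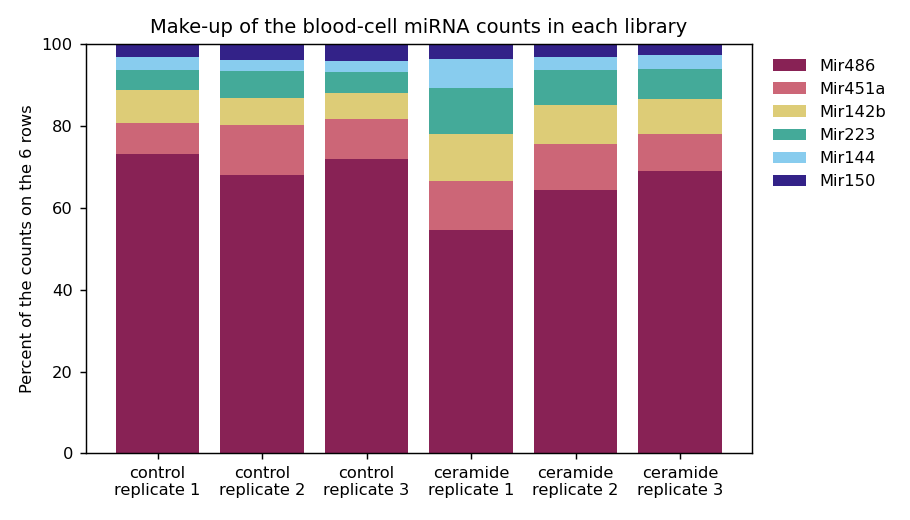
Percent of the counts on the 6 blood-cell rows that each row took in each library. Mir486 takes 54.6% in ceramide replicate 1 and between 64.2% and 73.2% in the other libraries.

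The correlations between members differed in size and sign. Over the 6 libraries Pearson's r of log2 CPM was -0.03 between Mir451a and Mir144, which share a transcript. It was 0.73 between Mir223 and Mir142b, and 0.69 and 0.71 between each of these and Mir144. Mir486 went against them, at -0.90 with Mir223, -0.78 with Mir144 and -0.56 with Mir142b, and Mir150 had r = -0.71 with Mir142b. These values describe 6 libraries that share treatment, replicate number and depth. Mir144 rests on 12 to 30 counts per library and Mir150 on 9 to 30, so counting error enters their correlations. A low value therefore cannot show that 2 rows fail to move together.
The rows most like each member over the 6 libraries were picked from the 418 tested rows, nearly all of which are not members. High values and picks outside the 6 come with such a search, so they are no result about the members. The highest were Mir335 (0.982) and Mirlet7a-2 (0.980) for Mir223, Mir184 (0.976) and Gm23388 (0.960) for Mir142b, and Mir484 (0.961) and Mir501 (0.956) for Mir486. Mir484, with 1359 CPM, was on the list of other red cell and platelet miRNAs. They were Mir7j (0.944) and Mir669f (0.909) for Mir150, and Mir872 (0.929) and Mir20a (0.926) for Mir144. For Mir451a the highest were lower, at 0.760 for Mir30c-2 and 0.733 for Mir126a, a miRNA of endothelium and platelets with 1001 CPM.

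Many other miRNAs known from blood, but made by many cell types, were far more abundant than the 6 members. Not all were, since the Mir181 rows of the leukocyte list (166 to 202 CPM) lay below Mir486 (244 CPM). Mir148a of that list had 56 counts over the 6 libraries, too few to be tested and below the 115 of Mir150. The rows of red cell and platelet miRNAs outside the members held 18.7% to 20.2% of the counts, led by Mir16-1 (77594 CPM), Mir16-2 (77210 CPM) and Mir25 (20273 CPM). Mir16-1 and Mir16-2 encode the same mature miRNA and had nearly equal counts, so the same reads may stand in both rows. Both were higher in ceramide, with a log2 fold change of 0.28 inside the fold threshold (quasi-likelihood adjusted p = 0.0379 and 0.0393). The members held 0.0313% to 0.0410%. Of the 10 red cell and platelet rows 2 were called, against 11.5% of all rows, both lower in ceramide, Mir25 with a log2 fold change of -0.62 and Mir92-2 with -0.69 (quasi-likelihood adjusted p = 0.0026 and 0.038). The other leukocyte miRNAs were led by Mir21a (45418 CPM), Mir342 (9274 CPM) and Mir29a (8872 CPM), and 1 of the 14 tested was called, Mir146 at -0.66 (quasi-likelihood adjusted p = 0.00498). None of these calls of red cell and leukocyte rows held with DESeq2's size factors. With the replicate block, which called 20.8% of all rows, 3 of the 10 red cell and platelet rows were called (Mir484 added) and 5 of the 14 leukocyte rows (Mir181a-1, Mir181a-2, Mir181b-1 and Mir181b-2 added), all lower in ceramide. Mir181a-1 and Mir181a-2 had nearly equal counts, and Mir181b-1 and Mir181b-2 similar ones, so the same reads may stand in several of these rows. The median log2 fold change was 0.07 over the red cell and platelet rows (6 above 0 and 4 below). It was -0.04 over the leukocyte rows (6 above 0 and 8 below).
Mir155, a miRNA of activated lymphocytes and macrophages, was at or near 0, with 4 counts over all 6 libraries. Beside it Mir142b had 292 counts and Mir223 had 251. The brain and neuron rows were led by Mir218-2 (10804 CPM, log2 fold change 0.46), Mir218-1 (3591 CPM, -0.09) and Mir138-2 (3150 CPM, -0.21), and none of these was called. Of the 19 rows tested, 3 were called, against 11.5% of all rows, and all 3 were lower in ceramide, against 8.37%. They were Mir138-1 (-0.76), Mir128-2 (-0.78) and Mir153 (-0.84), with adjusted p of 0.00529, 0.0026 and 0.0189 from the same test, and the median over the 19 was -0.21.

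**Figure D5:**
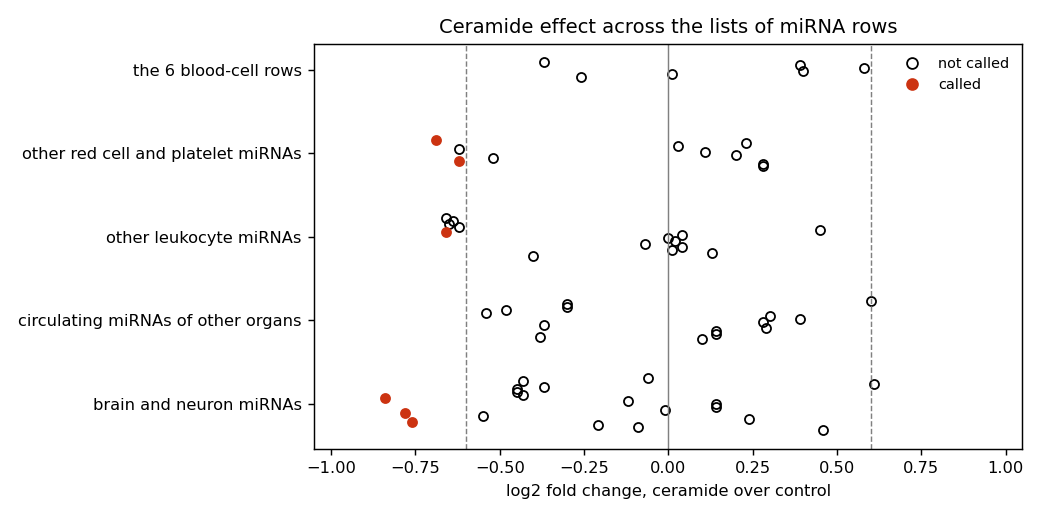
Log2 fold change (horizontal axis) of every tested row in the 6 blood-cell rows and in 4 other lists, with called rows in red and the fold threshold of 0.6 dashed. The 6 blood-cell rows lie between -0.37 and 0.58 with none called, and the 3 called brain and neuron rows lie below -0.75.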

How the data were processed

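Exosomal small RNA of HN9.10e cells was sequenced in 3 control and 3 ceramide libraries (QIAseq miRNA kit). The authors trimmed reads with cutadapt 1.15, aligned them to GRCm38 with STAR 2.5.3a, assigned them to GENCODE miRNA genes and deposited raw counts. The GENCODE release, strand setting and handling of multiply aligned reads and molecular identifiers are not given in the sources used here, so counting intervals cover counting error only. Names came from GENCODE M21 (1894 of 1973 rows matched).

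The counts were tested with edgeR 4.0.16 in R 4.3.3 (TMM, filterByExpr, quasi-likelihood test, condition only, Benjamini-Hochberg adjustment over 418 rows). Standard errors come from the F statistic. DESeq2 1.42.0, limma-voom (limma 3.58.1), other scalings and filters, a lane term and a replicate block were alternatives, and the procedure was tested on simulated data. Log2 CPM used a prior count of 2. The labels give the same replicate numbers to both groups but do not say that they mark shared experiments. Deviations from group means correlated at 0.59, 0.43 and 0.75 for equal numbers and at most 0.10 otherwise, so the numbers were taken to pair the libraries. This pairing was read from the same counts that the block fit tested. Deviations from a mean of 3 libraries also depend on each other, so the correlations are not separate pieces of support. The study calls the replicates biological and ran triplicates, and the labels do not say which cultures they came from, so p-values measure the spread between these libraries. By rule, all members, the 3 most abundant and the called rows of each list, and the 2 rows most like each member were named. The neuronal check rows, Mir155 and Mir122 were named as defining markers. The Mir181 rows and Mir148a were named after their values were seen. The members and lists were chosen with earlier results of these data known.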

Additional observations from a re-analysis of the deposited data

How the results depend on the processing

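The signs of Mir144, Mir486, Mir223, Mir142b and Mir150 held in all 15 alternatives, and the call of none of these changed except Mir223. Mir223 was called with DESeq2's size factors (0.66), the 1 member called there. The log2 fold change of Mir451a turned negative with library size alone (-0.06) and the replicate block (-0.03), was 0.00 on the negative side with no filter, and lay between -0.13 and 0.16 with each library left out. The summed level differed by 22.1 CPM without Mir486, against -24.2 CPM with it, by -5.36 CPM with DESeq2's size factors, and by -37.3 to -11.5 CPM with each library left out. The 48 called rows became 87 with the replicate block, 29 with the lane as a term, and 28 to 55 with each library left out, the lowest without control replicate 1. Leaving out each library moved the fold changes to 0.10 to 0.63 for Mir144, -0.38 to -0.16 for Mir486, 0.47 to 0.70 for Mir223, 0.33 to 0.53 for Mir142b and -0.45 to -0.25 for Mir150. With DESeq2's size factors 0 red cell and platelet rows, 0 leukocyte rows and 1 row of other organs were called. The replicate block called 3 red cell and platelet rows and 5 leukocyte rows, and library size alone 1 row of other organs. The causes were not tested. With 9 to 30 counts per library, Mir150 allows only a wide interval. Summing members with their opposite-strand partners was not run, since no such row was in the table.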

Other observations

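Circulating miRNAs of other organs were present beside the blood-cell rows, and held 0.226% to 0.251% of the counts. Mir203, a miRNA of epidermis, led with 794 CPM over the 6 libraries, followed by the epithelial miRNAs Mir200a (311 CPM) and Mir200b (305 CPM). Mir122, the defining miRNA of liver, averaged 56.5 ± 5.04 CPM over the 3 control and 74.4 ± 0.896 CPM over the 3 ceramide libraries (SD), with a log2 fold change of 0.39 (quasi-likelihood adjusted p = 0.0635 in edgeR). Mir206, a miRNA of skeletal muscle, had 20.1 ± 2.92 CPM and 30.2 ± 3.68 CPM (log2 fold change 0.60, quasi-likelihood adjusted p = 0.0535). The lowest adjusted p of the list belonged to rows lower in ceramide. They were Mir194-1 (-0.54) and Mir499 (-0.48), with quasi-likelihood adjusted p of 0.0378 and 0.0472, and both stayed inside the fold threshold. Mir1a-1, of heart and skeletal muscle, had 61.6 CPM over the 6 libraries (log2 fold change 0.30). Mir133a-1 and Mir133a-2 had 28.1 CPM each (log2 fold change -0.30). None of the 14 rows tested was called by edgeR or DESeq2, and limma-voom called 1. At an unadjusted p under 0.05 there were 7 with edgeR, 0 with DESeq2 and 7 with limma-voom, against 36.6%, 26.6% and 39.5% of all rows tested. The median log2 fold change over the 14 was 0.12, with 8 rows above 0 and 6 below. A further 8 rows had too few counts to be tested, among them Mir208a, a heart miRNA, with 1 count over all 6 libraries. The epithelial miRNAs Mir200c, Mir141 and Mir205 were also among them, with 24, 21 and 8 counts, so the epithelial rows differed widely in level. Mir206, Mir194-1, Mir499, Mir1a-1, the Mir133a rows, Mir208a, Mir200c, Mir141 and Mir205 were named after their values were seen.

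The rows most like the summed level of the 6 members over the 6 libraries were Mir485 (Pearson's r of 0.956) and Mir484 (0.939), as a description of libraries that share treatment and depth. They too were picked as the highest among the tested rows, so high values come with the search.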
